A study of Mus musculus with 44 samples.

Results

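The 6 libraries made from 50 ng of 3C library, 3 with LI-Capture-C and 3 with Tag-Capture-C, were compared by the 5 kb windows of the viewpoint's chromosome that stood above background. They were chosen by their protocol and input from the 44 libraries of the series. The 6 libraries made from 200 ng served as a depth reference. All 12 came from Ter-119+ erythroid cells, which carry an erythroid surface marker, taken from the spleens of C57BL/6 females. The females had received phenylhydrazine (3 doses of 40 mg/g body weight as labelled, at 12 h intervals, with spleens taken after 5 days), which destroys red cells and fills the spleen with their precursors. The cells had been fixed with 2% formaldehyde. No untreated mice and no other cell type were among these libraries, so the contacts are those of 1 tissue in 1 state. The replicates of a group are described by the study as aliquots in one place and as biological replicates in another, so the p-values may measure technical spread only.

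In a 3C library, chromatin is cross-linked, cut with DpnII at GATC and religated, and fragments that lay close in the nucleus become joined. Capture-C enriches the joints of a chosen fragment, the viewpoint, and counts its unique interactions with every other fragment. LI-Capture-C breaks the DNA by sonication and ligates adaptors, and Tag-Capture-C cuts and tags it with a transposase. The viewpoints were the promoters of the α-globin genes (Hba-a1 and Hba-a2, which encode the α chain of haemoglobin), of the β-globin genes (Hbb-b1 and Hbb-b2, which encode the β chain) and of Slc25a37, the mitochondrial iron importer Mitoferrin-1. In erythroid cells, the α-globin promoters contact a cluster of upstream enhancers that lies in and near the gene Nprl3, and the β-globin promoters contact the locus control region, a row of hypersensitive sites upstream of the gene cluster.

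The promoters are shown because the viewpoint fragments are set by their GATC sites and because the members of a pair were captured together. The 250 bases before the annotated start were read from RefSeq (GRCm38.p6, whereas the deposited counts are on mm9), each on the strand of its gene and with GATC in capitals. Hba-a1 lies at chr11:32283422-32283671 on the plus strand, Hbb-bs at chr7:103827929-103828178 on the minus strand and Hbb-bt at chr7:103813924-103814173 on the minus strand. Hbb-bs and Hbb-bt are the RefSeq names of the adult β-globin genes.
Hba-a1: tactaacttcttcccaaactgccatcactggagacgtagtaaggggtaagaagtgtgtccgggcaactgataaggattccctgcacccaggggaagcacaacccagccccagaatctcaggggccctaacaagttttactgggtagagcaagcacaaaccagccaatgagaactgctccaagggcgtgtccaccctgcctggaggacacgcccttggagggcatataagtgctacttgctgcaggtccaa
Hbb-bs: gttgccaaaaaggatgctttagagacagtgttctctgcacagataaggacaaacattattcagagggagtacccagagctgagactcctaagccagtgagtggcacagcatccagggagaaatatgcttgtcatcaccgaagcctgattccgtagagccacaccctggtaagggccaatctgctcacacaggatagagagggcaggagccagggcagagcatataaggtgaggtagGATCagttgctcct
Hbb-bt: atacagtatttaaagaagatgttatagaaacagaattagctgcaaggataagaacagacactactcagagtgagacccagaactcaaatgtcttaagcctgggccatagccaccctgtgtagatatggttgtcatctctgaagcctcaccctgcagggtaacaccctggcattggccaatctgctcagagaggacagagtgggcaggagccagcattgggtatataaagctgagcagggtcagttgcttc
The Hba-a2 window shared an unbroken run of 247 bases with that of Hba-a1, whereas the longest run shared by Hbb-bs and Hbb-bt was 14 bases. The interactions of a pair were analysed as pooled by the authors. Of the printed windows, that of Hbb-bs held 1 GATC and those of Hba-a1 and Hbb-bt held 0. A GATC was found in 41.9% of the 32851 promoter windows of the same length.

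The viewpoints appear in the deposited tables as gaps of 1847 to 2609 bp without listed fragments, at chr11:32182317-32184781 and chr11:32194990-32197598 for α-globin, chr7:110961283-110963273 and chr7:110975292-110977138 for β-globin, and chr14:69902161-69904393 for Slc25a37 (mm9). Distances below run from the centre of the outer gap on each side. Enhancer coordinates were not used here, and the enhancer stretch, the locus control region and the upstream stretch below are fixed ranges of distance from the viewpoints, named for the elements known to lie on that side. At 50 ng a library held 5366 to 6420 unique interactions with LI-Capture-C and 5140 to 5495 with Tag-Capture-C at α-globin, 4564 to 4983 and 5909 to 6221 at β-globin, and 1900 to 2111 and 2539 to 2639 at Slc25a37. Levels below are interactions per 100000 of the library, over all chromosomes.

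Over 1 Mb from the viewpoints, 96.7% to 98.9% of the 5 kb windows of the same chromosome were empty in a given library. The background level of a library was set as the lowest count, of at least 2, that no more than 1 in 1000 of these windows reached. It was 6 or 7 counts with LI-Capture-C and 5 with Tag-Capture-C at α-globin, 5 or 6 and 5 at β-globin, and 4 with both protocols at Slc25a37. In shares of the library these levels corresponded to 105 to 112 interactions per 100000 with LI-Capture-C and 91.0 to 97.3 with Tag-Capture-C at α-globin. They corresponded to 110 to 122 and 80.4 to 84.6 at β-globin, and to 189 to 211 and 152 to 158 at Slc25a37. A window counted as above background when it reached the level in all 3 libraries of a protocol. Over 1 Mb away, 0 windows did so at any viewpoint with either protocol at 50 ng.

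The background was more clumped with LI-Capture-C. Occupied background windows held on average 2.21 to 2.40 interactions per LI-Capture-C library and 1.98 to 2.01 per Tag-Capture-C library at α-globin, 1.98 to 2.12 and 1.79 to 1.90 at β-globin, and 1.59 to 1.74 and 1.33 to 1.36 at Slc25a37. The ranges of the 2 protocols did not overlap at any viewpoint, and the part of the library totals in this was not tested. Windows of 3 or more counts took up 53.5% to 59.1% of the background interactions with LI-Capture-C and 29.2% to 33.4% with Tag-Capture-C at α-globin. The highest count of any background window was 14 with LI-Capture-C and 8 with Tag-Capture-C at α-globin, 12 and 11 at β-globin, and 33 and 7 at Slc25a37.

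At α-globin, the enhancer stretch, 10 to 40 kb from the promoters on the lower-coordinate side, stood above background throughout. All 6 of its windows were called with both protocols, against 29.1% of the windows within 250 kb with LI-Capture-C and 30.1% with Tag-Capture-C. These shares pool windows far from the promoters. On this side every window out to 90 kb was called, so the calls alone did not set the stretch apart from its neighbours. The strongest window of the stretch was that at 30 to 35 kb (chr11:32148549-32153548). It held 199, 188 and 150 interactions in the LI-Capture-C libraries and 143, 121 and 137 in the Tag-Capture-C libraries. Every library thus exceeded its background level by a wide margin there, and the LI-Capture-C libraries were all above the Tag-Capture-C libraries. The window at 15 to 20 kb held 134, 139 and 113 interactions with LI-Capture-C and 103, 126 and 151 with Tag-Capture-C. The window at 10 to 15 kb held 150, 122 and 96 with LI-Capture-C and 124, 103 and 92 with Tag-Capture-C, and the window at 25 to 30 kb held 108, 117 and 110 and 116, 93 and 106. The counts of the 2 protocols overlapped in these 3 windows. The lowest windows of the stretch were those at 20 to 25 kb (83, 95 and 82 interactions with LI-Capture-C, 104, 91 and 79 with Tag-Capture-C) and at 35 to 40 kb (71, 64 and 48, and 65, 63 and 73). The smallest count of any library in the stretch, 48, was 8.0 times its background level, and the largest share that 1 restriction fragment took of a window was 23.4%, so no window rested on 1 fragment.

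The order of the α-globin windows was firm at its lower end with both protocols, and at its upper end with LI-Capture-C. With LI-Capture-C the window at 30 to 35 kb, at 3066 ± 255 per 100000 (SD, n = 3), lay above the next, at 15 to 20 kb (2212 ± 200), in every library. With Tag-Capture-C the same window had the highest mean, 2536 ± 228, but overlapped the window at 15 to 20 kb, at 2394 ± 373. The window at 35 to 40 kb was the lowest with both protocols, at 1042 ± 128 and 1269 ± 57.1, below every library of the next. In between, each window overlapped the next in this order with Tag-Capture-C. The lower end was less clear with LI-Capture-C at 200 ng, where the window at 35 to 40 kb was at 1398 ± 95.9 and that at 20 to 25 kb at 1438 ± 68.1. With Tag-Capture-C at 200 ng they were at 1329 ± 77.6 and 1632 ± 80.3.

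On the opposite side of the α-globin promoters, counts fell off within 40 kb. At 10 to 15 kb that side held 17, 47 and 35 interactions with LI-Capture-C and 18, 39 and 39 with Tag-Capture-C, and at 30 to 35 kb 13, 6 and 14 and 14, 12 and 6. On this side 5 of 6 windows of the mirror stretch were still above background with each protocol. The window at 35 to 40 kb was not called with either (11, 5 and 16 interactions, and 3, 6 and 13).

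**Figure D1:**
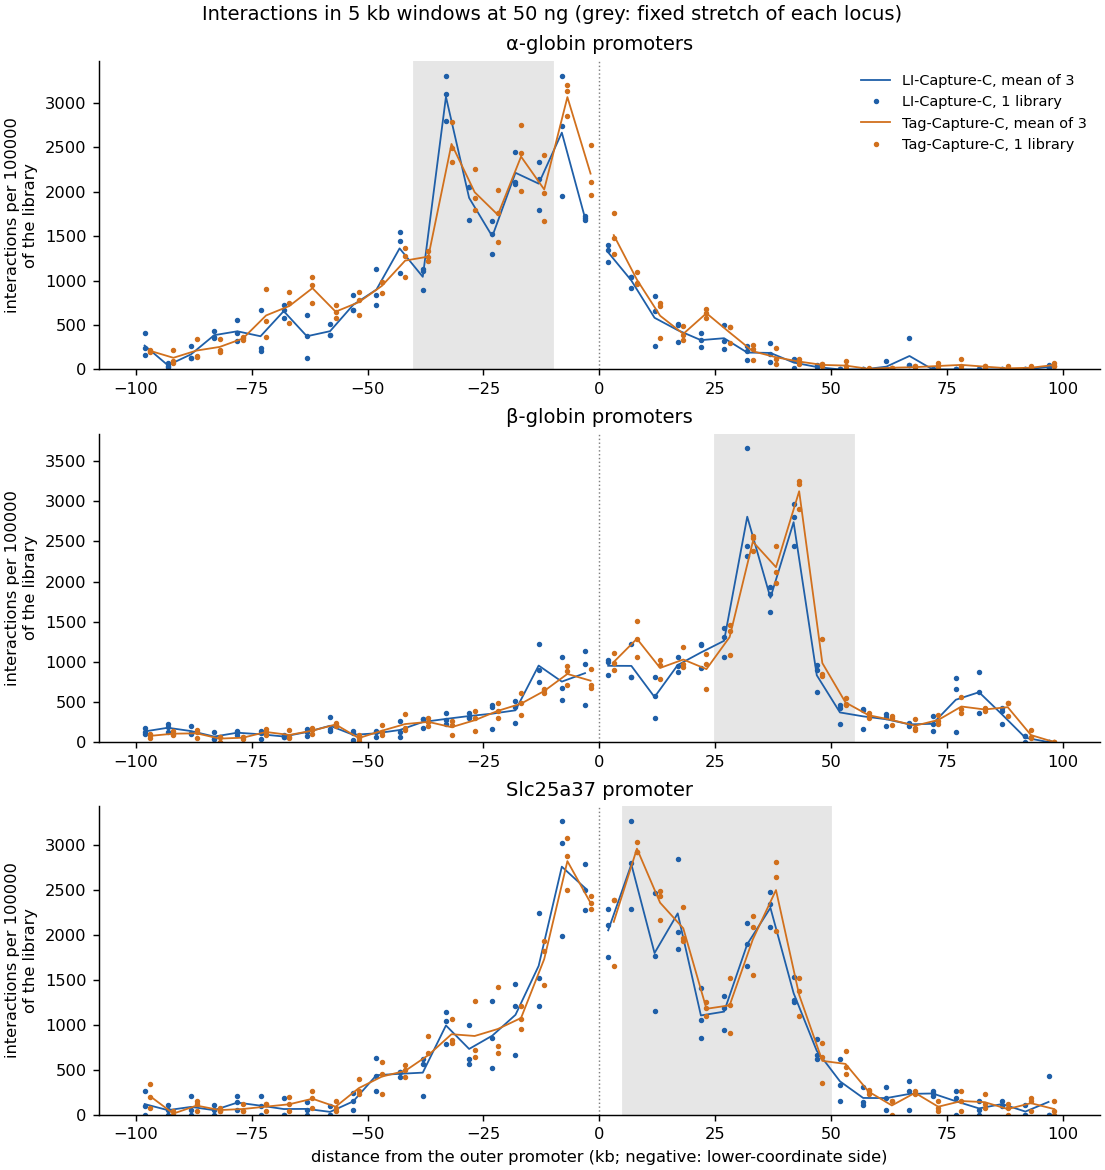
Unique interactions per 100000 of the library in 5 kb windows within 100 kb of the 3 viewpoints, against distance in kb from the outer promoter; points are libraries, lines are means of 3 and grey marks the stretch fixed for each locus. Beyond 10 kb, the highest mean of the α-globin profile lies at 30 to 35 kb on the lower side with both protocols, β-globin peaks at 30 to 35 and 40 to 45 kb on the higher side, and Slc25a37 rises again at 35 to 40 kb.

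Since contact frequency falls with distance on its own, each window was set against the one at the same distance on the other side in the same libraries (edgeR's quasi-likelihood test with the library as a block). At α-globin the enhancer side was higher in 19 of 20 distances tested (95% called) with LI-Capture-C and in 20 of 20 (100%) with Tag-Capture-C, and the opposite side in 0 (0%) with each. Distances entered the test with a mean of at least 5 counts over both sides, so these are not all 50 windows of a side. The farther ones, from 50 kb on, passed this filter mainly by their enhancer-side counts. Their calls follow in part from the filter, so the 95% and 100% do not measure how common the lean is. At 30 to 35 kb the log2 ratio of the sides was 4.02 ± 0.31 (SE, adjusted p = 3.8e-20) with LI-Capture-C and 3.65 ± 0.31 (adjusted p = 7.8e-18) with Tag-Capture-C. At 5 to 10 kb, next to the promoters, it was 1.39 ± 0.22 (adjusted p = 3.2e-08) and 1.60 ± 0.22 (adjusted p = 9.2e-10). At 15 to 20 kb it was 2.34 ± 0.30 (adjusted p = 1.2e-10) and 2.57 ± 0.30 (adjusted p = 8.7e-12), and at 25 to 30 kb 2.496 ± 0.336 (adjusted p = 7.1e-10) and 2.26 ± 0.33 (adjusted p = 9.0e-09). All 3 libraries of each protocol showed this direction at these distances. The median log2 ratio over the 6 windows of the stretch was 2.42 with both protocols, below the median of all distances tested, 3.77 and 3.08. Farther out the opposite side was nearly empty, and the distances kept there by the filter raised this median.

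Contacts on the enhancer side of α-globin reached past the enhancers. Windows above background ran without a break from the promoters to 90 kb on this side and to 35 kb on the other, with both protocols. Between 50 and 55 kb, the LI-Capture-C libraries held 54, 38 and 36 interactions on the enhancer side and 0 on the opposite side in all 3. This was at least 42.7-fold higher on the enhancer side, taking 3 counts over the 3 libraries as the floor for the empty side. The Tag-Capture-C libraries held 40, 32 and 48 interactions there and 2, 0 and 5 on the opposite side. The opposite side was at 0 in all LI-Capture-C libraries at 7 of the 20 distances tested, and at 0 such distances with Tag-Capture-C, where a few counts were spread over them.

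Single windows farther away differed in their calls between the protocols. From 250 kb to 1 Mb, 1 of 300 windows (0.333%) was called with LI-Capture-C and 3 of 300 (1%) with Tag-Capture-C. The farthest called window with LI-Capture-C lay at 445 to 450 kb on the enhancer side, with 11, 13 and 10 interactions, against 3, 3 and 4 with Tag-Capture-C. The farthest with Tag-Capture-C lay at 600 to 605 kb, with 7, 5 and 5 interactions, against 1, 7 and 3 with LI-Capture-C. The former window was above background with both protocols at 200 ng, and the latter with neither. With Tag-Capture-C the counts of the window at 600 to 605 kb lay at or near its level of 5. Those of the LI-Capture-C window at 445 to 450 kb lay farther above its levels of 6 or 7.

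At β-globin, the range taken for the locus control region was 25 to 55 kb on the higher-coordinate side. All 6 windows stood above background with both protocols, against 31.1% of the windows within 250 kb with LI-Capture-C and 38.8% with Tag-Capture-C. These shares pool windows far from the promoters, and every window out to 90 kb on this side was called. In the mirror stretch, 3 of 6 windows were called with LI-Capture-C and 5 of 6 with Tag-Capture-C. The window at 40 to 45 kb (chr7:111016215-111021214) held 122, 146 and 128 interactions with LI-Capture-C and 181, 192 and 196 with Tag-Capture-C, whose libraries were deeper. The window at 30 to 35 kb held 122, 114 and 167 interactions with LI-Capture-C and 160, 150 and 145 with Tag-Capture-C. Between them, the window at 35 to 40 kb held 96, 80 and 84 and 123, 125 and 149. Per 100000 interactions, the pair of peaks was at 2808 ± 740 (30 to 35 kb) and 2740 ± 265 (40 to 45 kb) with LI-Capture-C, whose libraries overlapped, and at 2497 ± 102 and 3125 ± 188 with Tag-Capture-C, where the farther window was higher in every library.

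Both peaks lay above the windows nearer to the promoters on the same side. The window at 0 to 5 kb held 951 ± 103 per 100000 with LI-Capture-C and 998 ± 104 with Tag-Capture-C, that at 5 to 10 kb 949 ± 238 and 1287 ± 222, and that at 10 to 15 kb 561 ± 256 and 923 ± 120, all below every library of the peaks. From 45 kb on the profile fell again. The window at 25 to 30 kb held 65, 52 and 65 interactions with LI-Capture-C and 91, 64 and 84 with Tag-Capture-C, and the window at 45 to 50 kb held 45, 31 and 44 and 80, 50 and 50. The last window, at 50 to 55 kb, was the weakest, with 23, 21 and 10 and 34, 28 and 28. Its lowest library was 2.0 times its background level with LI-Capture-C and the lowest of the stretch 5.6 times with Tag-Capture-C.

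Against the mirror windows, the locus control region side was higher at 13 of 22 distances (59.1% called) with LI-Capture-C and 14 of 22 (63.6%) with Tag-Capture-C. The opposite side was higher at 2 (9.09%) and 0 (0%). Some distances passed the filter of at least 5 counts only by their counts on the locus control region side. The opposite side averaged 4.33 and 3 counts at 50 to 55 kb, the last window of the stretch, and 3.33 and 2.67 at 80 to 85 kb (LI-Capture-C, then Tag-Capture-C). Their calls follow in part from the filter, so the 59.1% and 63.6% do not measure how common the lean is. All 6 windows of the stretch were called with both protocols, at a median log2 ratio of 2.86 with LI-Capture-C and 3.19 with Tag-Capture-C, against 1.30 and 1.22 over all distances tested. At 40 to 45 kb the log2 ratio was 4.19 ± 0.36 (adjusted p = 1.5e-05) with LI-Capture-C and 3.81 ± 0.32 (adjusted p = 6.7e-06) with Tag-Capture-C, where the opposite side held 6, 13 and 3 interactions and 11, 9 and 21. At 35 to 40 kb it was 2.84 ± 0.28 (adjusted p = 2.1e-05) and 3.10 ± 0.26 (adjusted p = 6.7e-06), and at 30 to 35 kb 3.24 ± 0.34 (adjusted p = 2.8e-05) and 3.75 ± 0.35 (adjusted p = 9.8e-06). Over both directions, the LI-Capture-C count of 15 was 8 without its replicate 1.

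Past the locus control region a second rise was found at 75 to 90 kb. At 80 to 85 kb the LI-Capture-C libraries held 31, 18 and 40 interactions against 2, 6 and 2 on the other side, and the Tag-Capture-C libraries 24, 25 and 25 against 4, 0 and 4. The log2 ratios were 3.07 ± 0.64 (adjusted p = 0.0033) and 3.18 ± 0.67 (adjusted p = 0.0024). This distance entered the test by its counts on the locus control region side, so its calls follow in part from the filter. The window at 75 to 80 kb varied more with LI-Capture-C, at 40, 6 and 30 interactions, than with Tag-Capture-C, at 35, 24 and 22.

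The unbroken run above background reached 90 kb on the locus control region side with both protocols, and 40 kb with LI-Capture-C and 50 kb with Tag-Capture-C on the other. Every one of the 32 windows called with LI-Capture-C on chromosome 7 was among the 40 called with Tag-Capture-C (80% of the latter). The farthest called window lay at 100 to 105 kb on the lower side with LI-Capture-C (7, 15 and 11 interactions, and 7, 14 and 8 with Tag-Capture-C) and at 125 to 130 kb on the higher side with Tag-Capture-C (6, 12 and 8, and 5, 1 and 2 with LI-Capture-C). The β-globin depth was greater with Tag-Capture-C by the totals above, and its part in these extra windows was not tested.

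At Slc25a37, the window counts were lower, but the rise upstream of the gene remained visible. All 9 windows from 5 to 50 kb on the higher-coordinate side, upstream of the gene, were above background with both protocols, against 21% of the windows within 250 kb with LI-Capture-C and 24% with Tag-Capture-C. The 9 mirror windows, on the side of the gene body, were also all called, so the level alone did not tell the sides apart. Upstream, the window at 35 to 40 kb held 44, 47 and 45 interactions with LI-Capture-C and 54, 67 and 74 with Tag-Capture-C. The window at 20 to 25 kb, nearer to the promoter, held 18, 20 and 27 and 29, 30 and 33, and the window at 25 to 30 kb 25, 25 and 18 and 40, 31 and 24. All libraries of both protocols were thus higher at 35 to 40 kb than in either of these nearer windows.

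Per 100000 interactions, the Slc25a37 window at 35 to 40 kb was at 2299 ± 198 with LI-Capture-C and 2497 ± 398 with Tag-Capture-C, in mean second in the stretch to the window at 5 to 10 kb, at 2782 ± 488 and 2956 ± 66.0. The windows at 10 to 15 kb (52, 22 and 34 interactions with LI-Capture-C, 64, 63 and 57 with Tag-Capture-C) and 15 to 20 kb (60, 35 and 39, and 61, 50 and 51) spread more between libraries with LI-Capture-C. The windows at 30 to 35 kb (35, 36 and 41, and 55, 56 and 41) and 40 to 45 kb (27, 29 and 24, and 29, 35 and 40) flanked the rise. Per 100000 interactions, the window at 35 to 40 kb overlapped those at 30 to 35 kb and at 15 to 20 kb with both protocols. At 45 to 50 kb the counts were down to 14, 16 and 12 and 17, 9 and 21, and the lowest library of the stretch was 3.0 times its level with LI-Capture-C and 2.25 times with Tag-Capture-C. The farthest called window lay at 70 to 75 kb upstream with LI-Capture-C (5, 5 and 4 interactions, and 4, 1 and 2 with Tag-Capture-C) and at 65 to 70 kb upstream with Tag-Capture-C (6, 6 and 7, and 8, 5 and 1 with LI-Capture-C).

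Against the mirror windows, the upstream side was higher at 5 of 11 distances with each protocol (45.5% called), and the opposite side at 0 (0%). The same 5 distances were called with both, 15 to 20, 30 to 35, 35 to 40, 40 to 45 and 50 to 55 kb. At 40 to 45 kb, the log2 ratio was 1.56 ± 0.23 (adjusted p = 0.0014) with LI-Capture-C and 1.44 ± 0.20 (adjusted p = 0.0012) with Tag-Capture-C. At 35 to 40 kb it was 2.28 ± 0.37 (adjusted p = 0.0016) and 1.90 ± 0.32 (adjusted p = 0.0018), and at 30 to 35 kb 0.93 ± 0.25 (adjusted p = 0.022) and 1.11 ± 0.23 (adjusted p = 0.0053). The count of 5 fell to 3 for LI-Capture-C without its replicate 2, its replicate 3 or Tag-Capture-C replicate 3, and to 3 for Tag-Capture-C without its replicate 1 or 3.

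**Figure D2:**
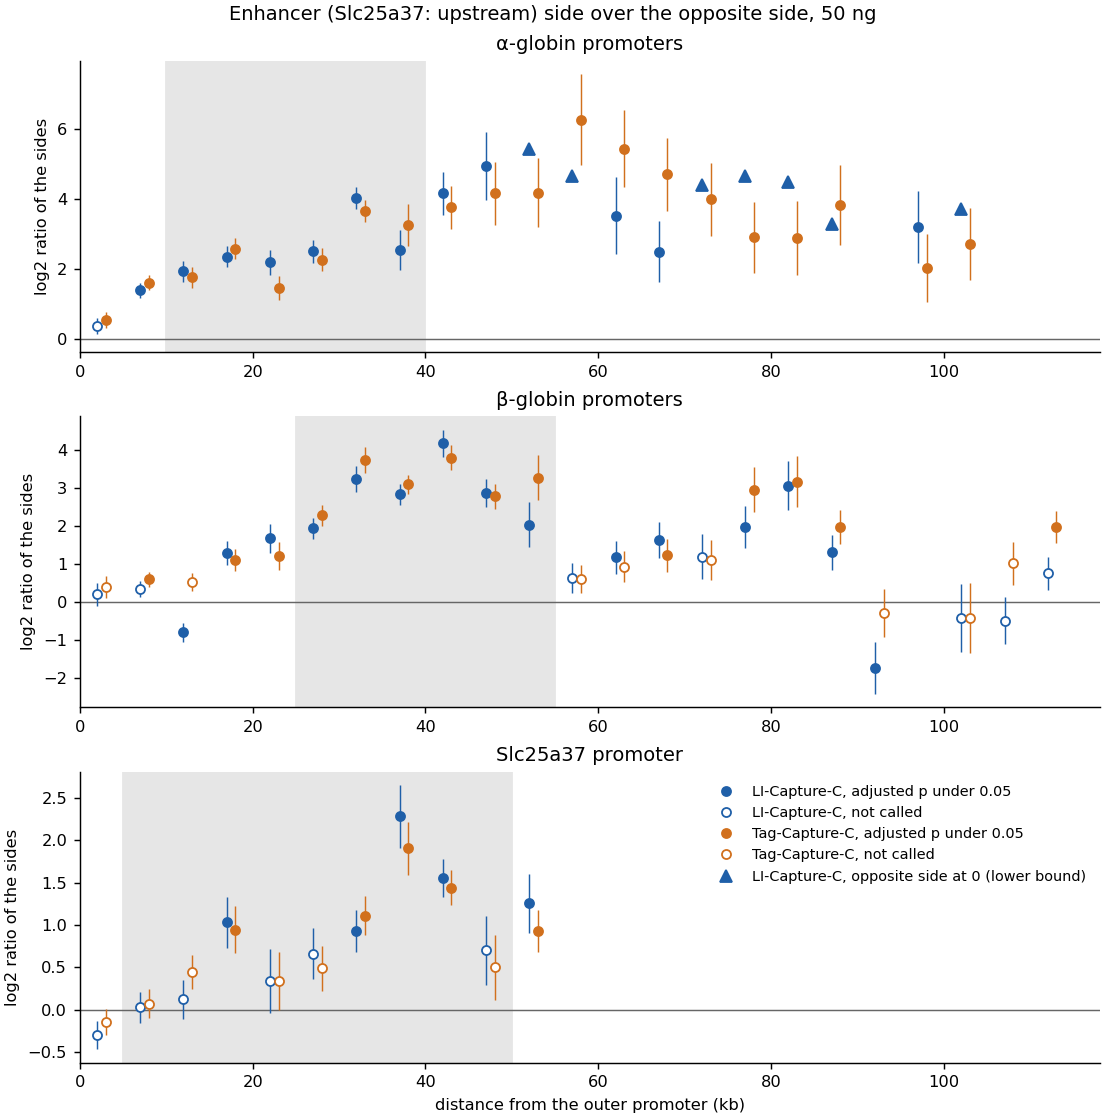
Log2 ratio of the enhancer side (upstream side for Slc25a37) to the opposite side against distance in kb, from the quasi-likelihood fit with SE, for the distances tested. Filled points have an adjusted p under 0.05. Triangles stand where the opposite side was at 0 in all 3 libraries, and are lower bounds by the counting error of that side only. At α-globin all points lie above 0 with both protocols. The highest ratio lies at 40 to 45 kb at β-globin, followed by that at 30 to 35 kb, and at 35 to 40 kb at Slc25a37, with both protocols.

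The side ratios of the 2 protocols were then compared directly. A difference was called at 0 of 20 distances at α-globin, 0 of 22 at β-globin and 0 of 11 at Slc25a37 (0% each, edgeR), with 2, 1 and 0 distances at an unadjusted p under 0.05, and 3, 1 and 0 with DESeq2. The nearest to a call was β-globin at 10 to 15 kb. The LI-Capture-C libraries held 15, 40 and 26 interactions on the locus control region side and 37, 60 and 41 on the other, and the Tag-Capture-C libraries 49, 57 and 62 and 38, 38 and 40. All 3 libraries of each protocol at 50 ng thus leaned to opposite sides, with a difference in log2 ratio of 1.33 ± 0.33 (SE, adjusted p = 0.062). Without LI-Capture-C replicate 2, 1 β-globin distance was called, and without Tag-Capture-C replicate 2, 3 α-globin distances. At 200 ng, the β-globin levels at 10 to 15 kb did not show opposite leans in their means. With LI-Capture-C they were 969 ± 45.7 (SD) on the locus control region side and 966 ± 177 on the other. With Tag-Capture-C they were 827 ± 39.3 and 792 ± 97.4. Side ratios at 200 ng were not tested.

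The share of each window was also compared between the protocols, with TMM factors and a mean of at least 10 counts. A difference was called at 0 of 30 windows at α-globin, 0 of 33 at β-globin and 0 of 20 at Slc25a37 (0% each, edgeR), with 3, 1 and 0 at an unadjusted p under 0.05. DESeq2 also called 0 at each, with 2, 2 and 0 unadjusted. The groups of 3 libraries did not overlap at 7 α-globin windows (23.3%), 2 β-globin windows (6.06%) and 0 Slc25a37 windows (0%). The median size of the log2 difference was 0.16, 0.23 and 0.07, and the median SE 0.24, 0.41 and 0.26.

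The α-globin window at 30 to 35 kb on the enhancer side came nearest to a call, at a log2 ratio of Tag-Capture-C to LI-Capture-C of -0.48 (95% interval -0.76 to -0.19, adjusted p = 0.085). Next was the window at 60 to 65 kb on the same side, which held 24, 35 and 7 interactions with LI-Capture-C and 49, 39 and 57 with Tag-Capture-C, at a log2 ratio of 1.08 (0.31 to 1.85, adjusted p = 0.13). The other 2 windows of this locus nearest to a call were that at 20 to 25 kb on the opposite side, at 0.74 (0.08 to 1.41, adjusted p = 0.30), and that at 40 to 45 kb on the enhancer side, at -0.36 (-0.72 to 0.00, adjusted p = 0.36). TMM lowered the α-globin log2 ratios by a median of 0.20 against the shares of the library. Windows higher with Tag-Capture-C numbered 10 of 30 with TMM and 21 of 30 without, so the direction of small differences at this locus depends on the scale. The count of calls was 1 of 30 with library totals in place of TMM, and 2 without LI-Capture-C replicate 2 or 1 without Tag-Capture-C replicate 1.

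At β-globin the windows nearest to a call were that at 10 to 15 kb on the higher side, with a log2 ratio of 0.68 (0.01 to 1.34, adjusted p = 0.71), and that at 10 to 15 kb on the lower side, with -0.63 (-1.26 to 0.01, adjusted p = 0.71). On the higher side, the windows at 5 to 10 kb, with 0.38 (-0.11 to 0.88), and 80 to 85 kb, with -0.65 (-1.47 to 0.16), came next, both at the same adjusted p. Within the locus control region the ratios ran from -0.22 to 0.35, with 95% intervals that reached from -0.53 to 1.23 over the 6 windows. At Slc25a37 the upstream stretch ran from -0.27 to 0.32, with intervals from -1.04 to 0.86, and at α-globin the enhancer stretch from -0.48 to 0.08, with intervals from -0.76 to 0.40. These are the outermost bounds of windows of unequal precision, and each window has its own interval. The windows nearest to a call at Slc25a37 were those at 50 to 55 kb (0.55, -0.35 to 1.45) and 10 to 15 kb (0.32, -0.21 to 0.86) upstream, and, with LI-Capture-C higher, those at 0 to 5 kb on the gene body side (-0.14, -0.44 to 0.17) and 15 to 20 kb upstream (-0.17, -0.63 to 0.29), all with an adjusted p of 1.00.

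**Figure D3:**
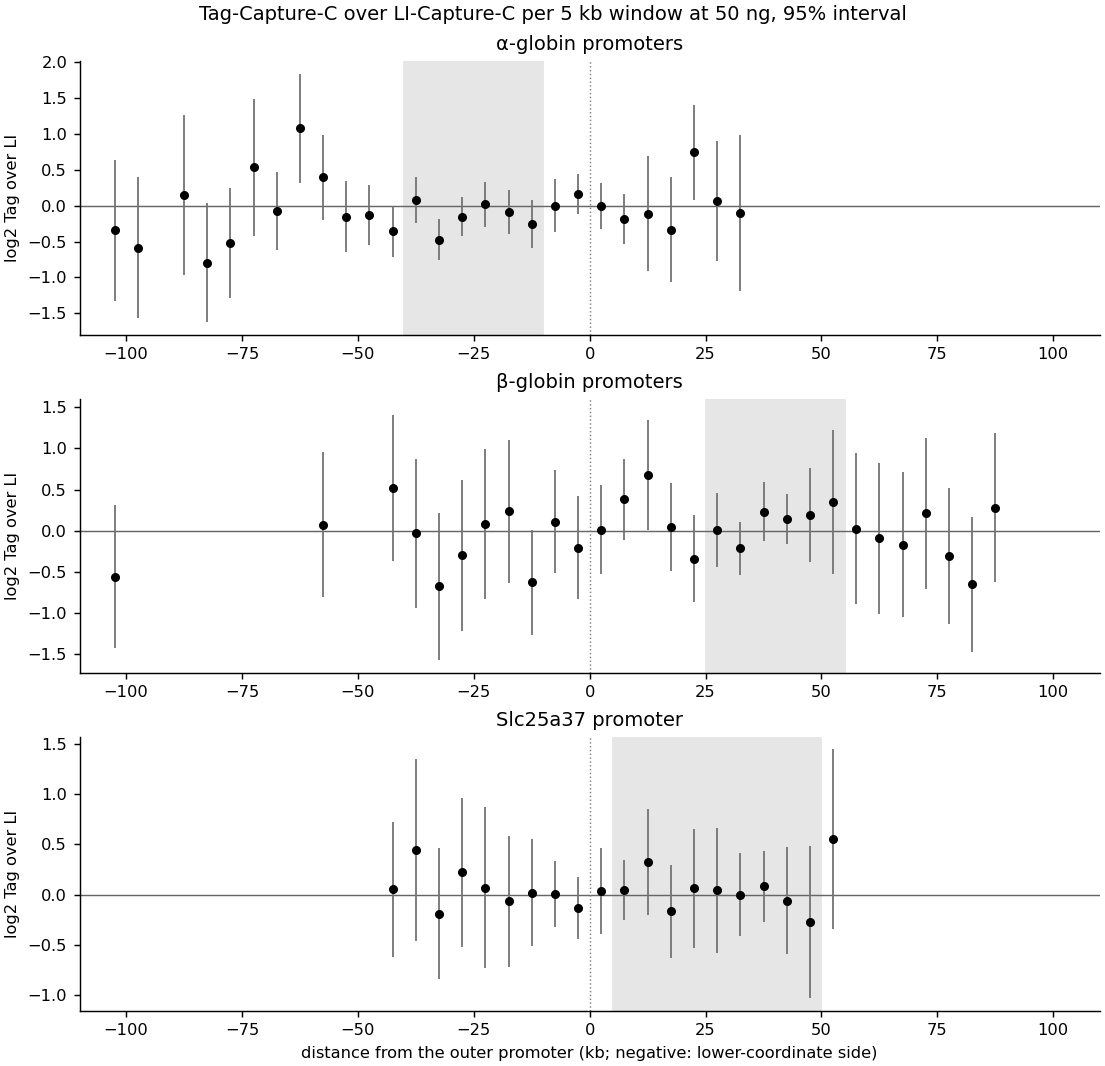
Log2 ratio of Tag-Capture-C to LI-Capture-C in each tested 5 kb window against distance in kb, with the 95% interval of the quasi-likelihood fit; grey marks the fixed stretch of each locus. The intervals are narrow mostly where counts are high, and wider in the weak windows of the stretches, as at 50 to 55 kb at β-globin (-0.53 to 1.23). The lowest point of the α-globin stretch is the window at 30 to 35 kb, at -0.48.

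The α-globin enhancer stretch took 11.8% ± 0.81 of the interactions (SD, n = 3) with LI-Capture-C and 12.0% ± 0.68 with Tag-Capture-C, and the locus control region 9.81% ± 0.98 and 10.6% ± 0.24. The upstream stretch of Slc25a37 took 15.3% ± 0.53 and 16.2% ± 0.31, without overlap. The region within 250 kb took 35.0% ± 1.42 and 37.8% ± 0.62 at α-globin, without overlap, 29.5% ± 1.24 and 30.8% ± 0.90 at β-globin, and 34.4% ± 1.00 and 36.2% ± 0.93 at Slc25a37. As a share of the interactions in cis, it was 56.9% ± 1.73 and 55.7% ± 1.31 at α-globin, 52.4% ± 2.41 and 49.6% ± 1.53 at β-globin, and 56.8% ± 0.97 and 53.7% ± 1.03 at Slc25a37, so the direction turned with the denominator. The stretch shares turned as well, with Tag-Capture-C minus LI-Capture-C at -1.59 percentage points of the interactions in cis at α-globin, -0.38 at β-globin and -1.35 at Slc25a37. The share in cis itself was higher with Tag-Capture-C at all 3 viewpoints, at 67.8% ± 0.64 against 61.5% ± 0.66 at α-globin.

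The background per window followed the same direction. It was 0.981 ± 0.043 interactions per 100000 with LI-Capture-C and 1.11 ± 0.064 with Tag-Capture-C at α-globin, 0.836 ± 0.063 and 0.982 ± 0.037 at β-globin, and 0.979 ± 0.024 and 1.20 ± 0.012 at Slc25a37, without overlap at any viewpoint. The log2 ratio of the stretch to this background was 10.97 ± 0.13 and 10.81 ± 0.08 at α-globin and 10.76 ± 0.02 and 10.55 ± 0.04 at Slc25a37, without overlap, and 10.93 ± 0.25 and 10.81 ± 0.08 at β-globin, with overlap. With windows 250 kb to 1 Mb away as the background, the difference in this ratio, Tag-Capture-C minus LI-Capture-C, turned from -0.22 to 0.20 at Slc25a37 and from -0.12 to 0.017 at β-globin, and that in the background per window at Slc25a37 from 0.22 to -0.79 per 100000. Of the 15 comparisons of such library values, those without overlap had p = 0.1 in the exact two-sided permutation test, the smallest that 3 against 3 libraries can give, and an adjusted p of 0.21, so none passed.

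The Tag-Capture-C libraries filled more of the windows within 250 kb at Slc25a37. There 33 of 100 windows were counted in all 3 LI-Capture-C libraries and 51 in all 3 Tag-Capture-C libraries, and 27 and 13 windows were empty in all 3. At β-globin 55 and 62 of 103 windows were counted in all 3 libraries, and at α-globin 44 and 45. The totals of the Tag-Capture-C libraries were higher at Slc25a37 and β-globin, and the part of depth in this was not tested. Replicate profiles over these windows had mean r-values of 0.969 with LI-Capture-C and 0.979 with Tag-Capture-C at α-globin, 0.941 and 0.979 at β-globin, and 0.933 and 0.968 at Slc25a37, across windows that share libraries and are not independent. Between the protocols they were 0.968, 0.957 and 0.958.

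The windows called at 50 ng were largely those of the 200 ng libraries of the same protocol. With LI-Capture-C, 31 of 57 windows called at 200 ng were found again at 50 ng at α-globin (54.4%), 32 of 53 at β-globin (60.4%) and 21 of 36 at Slc25a37 (58.3%). With Tag-Capture-C, 33 of 51 (64.7%), 39 of 56 (69.6%) and 24 of 44 (54.5%) were found again. The 200 ng libraries differed in depth, at 24942 to 33512 interactions with LI-Capture-C and 14774 to 14927 with Tag-Capture-C at α-globin. These shares therefore do not compare the protocols. Conversely, all windows called at 50 ng with LI-Capture-C were called at 200 ng, and with Tag-Capture-C all but 1 at α-globin, 1 at β-globin and 0 at Slc25a37. These lists covered 0.24% (α-globin), 0.177% (β-globin) and 0.149% (Slc25a37) of the windows of the chromosome with LI-Capture-C at 200 ng and 0.215%, 0.187% and 0.182% with Tag-Capture-C. At 50 ng they covered 0.13%, 0.107% and 0.0868% with LI-Capture-C and 0.143%, 0.134% and 0.0992% with Tag-Capture-C. The protocols shared 30 windows at α-globin (96.8% of the LI-Capture-C and 88.2% of the Tag-Capture-C windows) and 20 at Slc25a37 (95.2% and 83.3%).

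**Figure D4:**
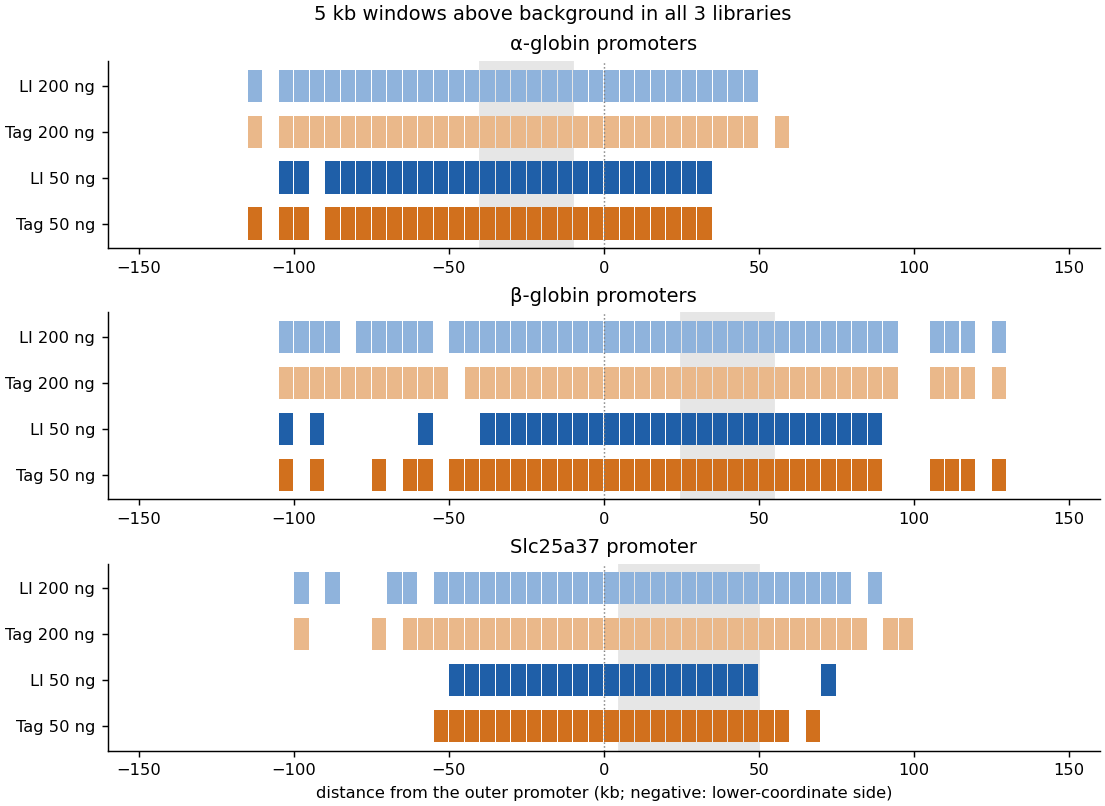
Windows of 5 kb above background in all 3 libraries of a group, within 150 kb of the outer promoter, against distance in kb; each bar is 1 window, and rows are the 2 protocols at 50 and 200 ng. The grey stretches are filled in every row. Beyond 100 kb, only windows called with at least 1 protocol at 50 ng are drawn, so windows called only at 200 ng are left out there. Within 100 kb, what is missing at 50 ng lies mostly at the edges.

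The windows not found again were weak ones, which follows in part from the levels. With LI-Capture-C at α-globin the level was 38.8 to 44.1 interactions per 100000 at 200 ng and 105 to 112 at 50 ng. Windows between these levels could be called at 200 ng only. At α-globin, windows found again with LI-Capture-C had a median of 678 interactions per 100000 at 200 ng, and those not found 78.9, with a highest of 177. With Tag-Capture-C the medians were 757 and 86.5. At β-globin they were 731 and 140 with LI-Capture-C and 474 and 95.5 with Tag-Capture-C, and at Slc25a37 1475 and 165, and 1082 and 117. Of the 26 α-globin windows not found with LI-Capture-C, 1 lay on the enhancer side within 100 kb, 3 on the opposite side, 6 from 100 to 250 kb and 16 beyond. Of the 18 not found with Tag-Capture-C, these were 1, 4, 4 and 9. The strongest window that was not found lay at Slc25a37, 50 to 55 kb upstream, at 522 per 100000 with LI-Capture-C at 200 ng. At 50 ng it held 7, 3 and 12 interactions with LI-Capture-C, 1 library being below the level of 4, and 14, 18 and 12 with Tag-Capture-C, where it was called.

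**Figure D5:**
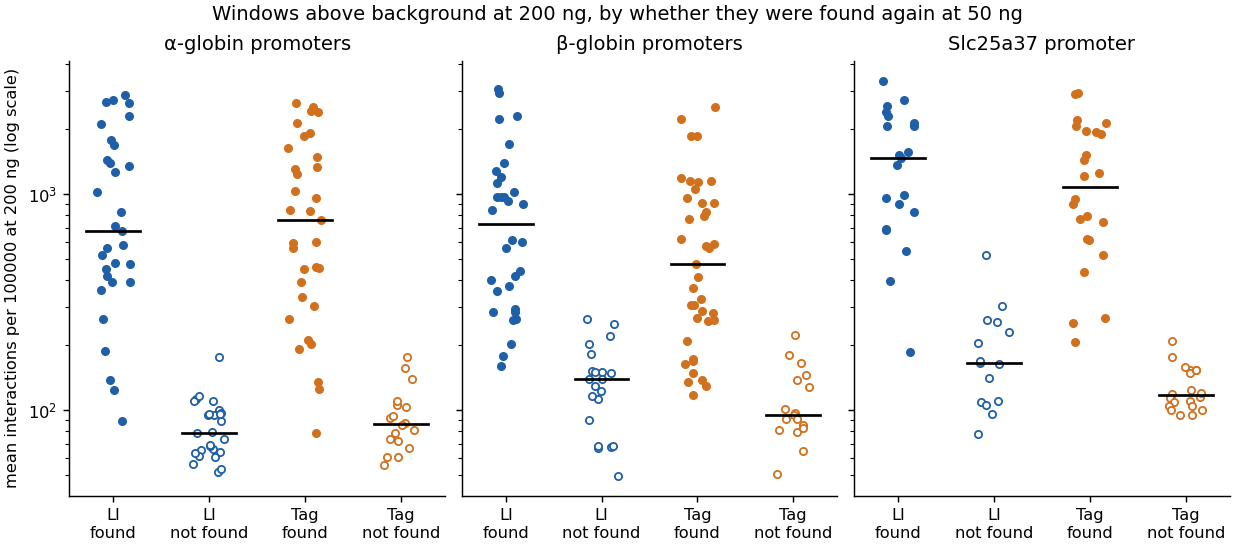
Mean interactions per 100000 at 200 ng (log axis) of each window called at 200 ng, by whether it was found again at 50 ng; points are windows and bars medians. In all 6 pairs the windows not found lie low, from medians of 678 to 78.9 at α-globin with LI-Capture-C to 1082 and 117 at Slc25a37 with Tag-Capture-C.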

How the data were processed

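Unique interactions were counted by the authors per DpnII fragment, on mm9, after read trimming with Trim Galore and alignment with Bowtie per the submitters' processing notes. The deposited values are raw counts, after removal of read pairs with identical or nearly identical ends as PCR duplicates, and the interactions of paired promoters were pooled. How strictly duplicates were removed sets the counts. Windows, stretches and comparisons were chosen with earlier results of these data known. Fragments were summed into 5 kb windows by their midpoint. Windows were named by a fixed rule, namely all windows of the 3 stretches, the 2 nearest to a call per direction between protocols, the farthest window above background per protocol, and the 3 distances with the smallest adjusted p between sides. Floors cover counting error only, whereas the 95% intervals come from the fit and include the spread between libraries.

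For tests on counts, edgeR 4.0.16 (quasi-likelihood, R 4.3.3) was used after being tested on simulated data, with Benjamini-Hochberg adjustment per viewpoint and a threshold of 0.05. DESeq2 1.42.0 was an alternative. Side tests used bins with a mean of at least 5 counts over both sides and the library as a block. A bin high on 1 side only could thus enter. Protocol tests used windows within 250 kb with a mean of at least 10 and TMM factors. The other work used Python 3.11.15, NumPy 2.4.6, pandas 2.3.3, SciPy 1.17.1 and matplotlib 3.10.9. Window sizes, background levels, filters, scales and each library left out were varied. Fragments of other chromosomes entered only the library totals. The 100 ng, cell number and fixation libraries were not used here.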

Additional observations from a re-analysis of the deposited data

Results flagged for a closer look

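At β-globin, 10 to 15 kb from the promoters, every LI-Capture-C library at 50 ng held more interactions on the side away from the locus control region. Every Tag-Capture-C library at 50 ng held more on the side towards it. The log2 side ratio of Tag-Capture-C minus that of LI-Capture-C was 1.33 ± 0.33 (SE), and the test of this difference did not pass (edgeR, adjusted p = 0.062). At 200 ng the mean levels did not show opposite leans. Towards and away from the locus control region, they were 969 and 966 with LI-Capture-C and 827 and 792 with Tag-Capture-C. Side ratios at 200 ng were not tested. No group held more than 3 libraries, so single libraries were not tested as outliers.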

How the results depend on the processing

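With the level of 1 in 1000 background windows, all windows of the stretches were called at 50 ng, and 0 windows over 1 Mb away. The number of windows above background followed the window size. With 10 kb windows it was 19 with LI-Capture-C at α-globin, 26 with Tag-Capture-C at β-globin, and 13 with LI-Capture-C and 14 with Tag-Capture-C at Slc25a37. With 2 kb windows it was 52 and 64 at α-globin and 41 and 48 at Slc25a37. With the highest background window as the level it was 21 at β-globin and 9 at Slc25a37 with LI-Capture-C, where 1 background window of Slc25a37 held 33 counts. Windows of the Slc25a37 stretch were then lost, such as that at 20 to 25 kb, which held 27 counts in the same library. With a level of 1 in 100 background windows, the share of 200 ng windows found again was 43.6% and 55.8% at β-globin, and 37.5% at Slc25a37 with LI-Capture-C. Leaving out each library in turn moved the number above background to 32 to 34 and 35 to 42 at α-globin, 36 to 38 and 43 to 44 at β-globin, and 22 to 26 and 26 to 28 at Slc25a37 (LI-Capture-C, then Tag-Capture-C), since fewer libraries then had to reach the level.

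For the sides, 10 kb bins gave 11 called distances with LI-Capture-C and 10 with Tag-Capture-C at α-globin, with fewer bins tested. Bins shifted by 2.5 kb gave 9 with Tag-Capture-C at β-globin and 8 at Slc25a37, and each protocol fitted on its own gave 3 with LI-Capture-C at Slc25a37. The cause was not tested. Without 1 library, the calls in either direction ran from 17 to 19 and 14 to 20 at α-globin, 8 to 15 and 11 to 17 at β-globin, and 3 to 5 and 3 to 6 at Slc25a37. At Slc25a37, side ratios near 0 with LI-Capture-C changed sign with 1 library left out, and ran from -0.18 to 0.23 (5 to 10 kb), -0.24 to 0.40 (10 to 15 kb) and -0.14 to 0.68 (20 to 25 kb). The side difference between protocols was called at 0 to 3 distances at α-globin, 0 to 1 at β-globin and 0 at Slc25a37.

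Between protocols, 1 α-globin window was called with library totals in place of TMM, with a mean count of at least 5, and without a filter, in each case that at 60 to 65 kb (log2 1.28, 1.18 and 1.15). Leaving out libraries gave 0 to 2 calls at α-globin and 0 elsewhere, and single restriction fragments gave 1 at β-globin. The Slc25a37 window at 15 to 20 kb upstream ran from -0.35 to 0.13 with 1 library left out. The deviations of replicates with the same number had r from -0.47 to 0.49. For replicate 1 the same number was the best partner at every viewpoint (r = 0.49 at α-globin, 0.37 at β-globin and 0.25 at Slc25a37). Among the other numbers this held only for replicate 2 at Slc25a37 (r = 0.28). These values were mixed, so they do not decide whether the numbers pair the libraries. With a replicate block the calls were 0 at α-globin, 0 at β-globin and 0 at Slc25a37.

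With interactions in cis as the denominator, Tag-Capture-C minus LI-Capture-C turned to -1.16, -2.78 and -3.07 percentage points within 250 kb and to -1.59, -0.38 and -1.35 in the stretch (α-globin, β-globin, Slc25a37). With a background 250 kb to 1 Mb away, the log2 ratio of stretch to background turned to 0.017 at β-globin and 0.20 at Slc25a37, and the background per window to -0.79 at Slc25a37. Without 1 library, the difference in the stretch share ran from -0.27 to 0.57 at α-globin. The log2 ratio of stretch to mirror ran from -0.44 to 0.0084 at α-globin, -0.014 to 0.44 at β-globin and -0.081 to 0.14 at Slc25a37, and that of stretch to background from -0.23 to 0.016 at β-globin. The level corresponded to 189 to 211 interactions per 100000 at Slc25a37 with LI-Capture-C, and windows below it could not be called.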
